A study of Mus musculus with 6 samples.

Results

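The genes examined here encode the semaphorins, plexins, neuropilins, ephrins and Eph receptors, the membrane and secreted proteins by which cells attract or repel each other. A locus was included when one of the symbols in its name matched Sema3 to Sema7 with a letter from a to g, Plxn with a letter from a to d and a digit, Nrp1 or Nrp2, Epha or Ephb with a number, or Efna or Efnb with a digit. This gave 54 of the 51499 loci in the deposited count table, under 53 symbols, because Epha5 stood on 2 loci. They comprised 20 semaphorins, 9 plexins, 2 neuropilins, 14 Eph receptors and 8 ephrins, and none shared its locus name with another symbol. Their transcripts were measured by poly(A) RNA sequencing in immortalized mouse embryonic fibroblasts (MEFs) of 2 genotypes, with 3 cultures each. The deleted gene, Yme1l, codes for an AAA protease that sits in the inner membrane of mitochondria. The wild-type (WT) cells carry floxed Yme1l alleles (Yme1l fl/fl) that were left intact, and the Yme1l-/- cells carry the deleted alleles. Per the study's methods, both came from MEFs of Yme1l loxP/loxP animals that were immortalized with SV40 large T antigen, received Cre recombinase and were expanded and genotyped as individual clones. How many clones stand behind the 3 cultures of each genotype is not given in the sources used here, so the p-values measure the spread between cultures, and a difference between genotypes cannot be told apart from a difference between clones.

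Ephrins and Eph receptors are both bound to the membrane and act where cells touch. Ephrin-A ligands are held by a GPI anchor and mostly bind EphA receptors, ephrin-B ligands cross the membrane and mostly bind EphB receptors, and signals run into the cell on either side of the contact. Class 3 semaphorins are secreted and mostly need a neuropilin to bind and a plexin to signal, while class 4 to 7 semaphorins are membrane proteins that bind plexins more directly. These systems are known for steering axons and blood vessels, and in fibroblasts and other mesenchymal cells they act on migration, adhesion and tissue boundaries.

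Each library held 33180867 to 49351107 counted fragments, and levels are written in CPM, fragments per 1000000 after TMM scaling. Log2 fold changes are Yme1l-/- over WT with their standard error (SE), and a gene was called when its adjusted p in edgeR's quasi-likelihood test was under 0.05 (Benjamini-Hochberg over all 13867 loci tested). Yme1l1, the targeted gene, fell from 191, 192 and 183 CPM in WT to 37.9, 38.9 and 40.6 CPM in Yme1l-/-, a change of -2.27 ± 0.05 (SE) on the log2 scale. Of 12 fibroblast markers, 9 passed the filter on low counts, 1 of them higher, 7 lower and 1 not called, where 33.6% of all loci were called higher and 34.1% lower. Among the lower ones, Col3a1 (86.3, 301 and 91.1 CPM in the WT cultures) and Dcn (1.57, 7.85 and 1.56 CPM) stood far higher in WT replicate 2 than in the other WT cultures, and their calls were kept in 10 and 8 of 14 alternatives. The log2 fold changes without WT replicate 2 were -1.63 for Col3a1 and -1.47 for Dcn, against -2.48 and -2.70 with all libraries, and both were called. The calls of Col1a1, which was higher, and Pdgfrb were lost when fold changes were taken relative to the median of the gene's chromosome (edgeR adjusted p 0.312 and 0.149). Col1a1, Col1a2, Fn1 and Vim each exceeded 1000 CPM on average in both genotypes, whereas the fibroblast markers Thy1, Fap and Lum were near 0. The fibroblast markers summed to between 10963 and 11520 CPM in the WT libraries and to between 6724 and 7207 CPM in the Yme1l-/- libraries. Epithelial markers also moved with genotype, with sums of 142 to 159 CPM in WT and 2.75 to 3.69 CPM in Yme1l-/-, nearly all from the keratins Krt19 and Krt18, while Cdh1 was at or below 0.224 CPM on average in both. In bulk RNA, fewer cells of a type and less RNA per cell cannot be told apart, and the part of these marker differences in the results below was not tested.

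Of the 54 loci, 42 passed the filter on low counts, 18 were called higher in Yme1l-/-, 21 were called lower and 3 were not called. Among all loci tested, 67.7% were called, 33.6% higher and 34.1% lower. At least 2-fold change and a call were found for 22 of the tested guidance loci (10 higher, 12 lower), beside 17.7% of all loci. The median log2 fold change was -0.30 over the 42 guidance loci and -0.004 over all loci, and the median size of the change, regardless of direction, was 1.05 against 0.384. In 18 guidance loci every Yme1l-/- library lay above every WT library and in 22 every Yme1l-/- library lay below, while 71.9% of all loci tested had genotypes that did not overlap. Genes called in opposite directions stood side by side in 4 of the 5 families, and the neuropilins were the family in which every member fell.

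**Figure D1:**
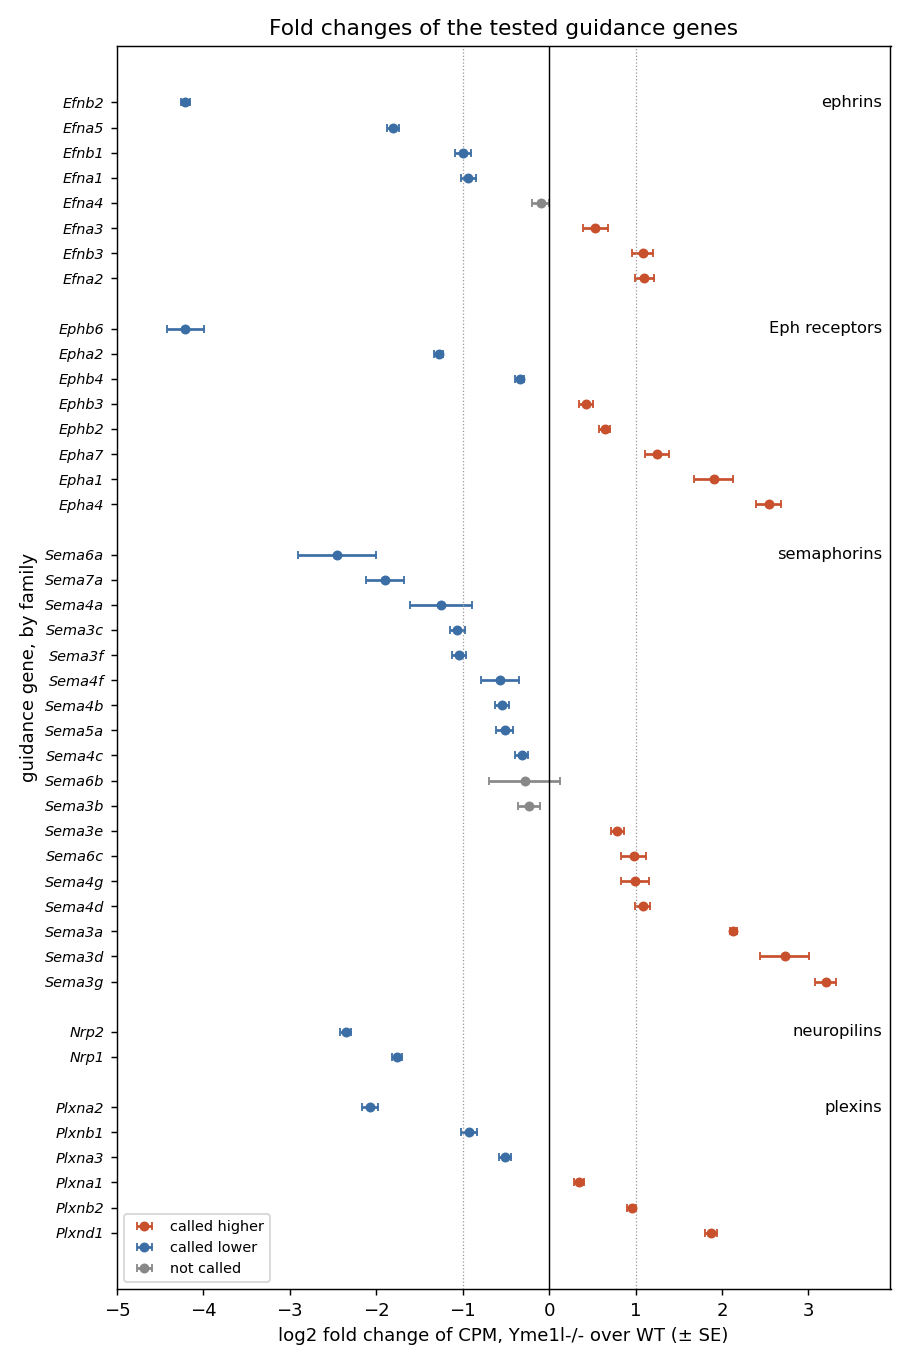
Log2 fold change (Yme1l-/- over WT, x axis) with its SE for the 42 tested guidance genes, grouped by family on the y axis, 3 libraries per genotype. Dotted lines mark 2-fold. Ephrins, Eph receptors, semaphorins and plexins each hold points on both sides of 0, and Efnb2 and Ephb6 lie furthest to the left, both at -4.21, with Sema3g furthest to the right at 3.20.

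Among the 42 tested guidance loci the lowest fold changes belonged to Efnb2 and Ephb6 and the highest to Sema3g, and the 250 bases before the RefSeq start of these 3 genes are shown because they are the genes at both ends of the range. Sequences are from RefSeq on GRCm38.p6, written 5′ to 3′ along the gene's strand, and 47 of the 53 symbols had such a window. The RefSeq starts of Ephb6 and Sema3g lie downstream of the starts of their deposited loci, so the ends of these windows overlap the loci. Capitals mark 3 motifs that were searched on both strands. The GC box was spelled GGGCGG, to which transcription factors of the Sp family are known to bind. The CCAAT box was spelled by its name. For the TATA box of core promoters the letters were TATAAA. The E-box with the letters CACGTG was searched as well, as was the AP-1 site with TGACTCA, and neither was found in these windows. No motif match overlapped another in them.
Efnb2 (chr8:8661243-8661492, minus strand): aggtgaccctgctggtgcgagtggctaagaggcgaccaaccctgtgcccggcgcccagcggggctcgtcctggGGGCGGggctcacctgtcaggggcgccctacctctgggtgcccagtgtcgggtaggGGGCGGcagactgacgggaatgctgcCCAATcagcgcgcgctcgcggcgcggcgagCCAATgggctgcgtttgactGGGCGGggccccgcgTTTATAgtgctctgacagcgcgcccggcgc
Ephb6 (chr6:41605261-41605510, plus strand): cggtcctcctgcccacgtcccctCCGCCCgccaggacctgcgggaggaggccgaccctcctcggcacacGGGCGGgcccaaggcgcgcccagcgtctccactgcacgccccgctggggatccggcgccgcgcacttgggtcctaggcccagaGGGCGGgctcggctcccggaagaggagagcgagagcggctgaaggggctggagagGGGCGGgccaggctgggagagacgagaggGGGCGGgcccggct
Sema3g (chr14:31217623-31217872, plus strand): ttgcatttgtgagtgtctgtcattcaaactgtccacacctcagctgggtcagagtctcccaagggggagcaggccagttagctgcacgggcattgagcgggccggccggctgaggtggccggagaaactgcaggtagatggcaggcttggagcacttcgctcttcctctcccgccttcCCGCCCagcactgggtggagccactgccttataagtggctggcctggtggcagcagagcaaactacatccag
The Efnb2 window held 3 GC boxes, 2 CCAAT boxes and 1 TATA box, the last on the opposite strand. The Ephb6 window held 5 GC boxes and the Sema3g window held 1, with no other motif in either. Over all 32851 windows of this length, 32.7% held a GC box, 33.8% a CCAAT box, 12.4% a TATA box, 6.02% an E-box and 4.46% an AP-1 site. A gene can have several windows, so windows are not genes. Genes called higher had 22 windows from 16 genes, with a GC box in 16 windows (13 genes) and a CCAAT box in 8 (6 genes). Genes called lower had 25 windows from 19 genes, with a GC box in 22 windows (17 genes) and a CCAAT box in 5 (5 genes). GC boxes were common before guidance genes of both directions. A match is a run of letters and says nothing of whether a factor binds there.

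Among the ephrins, the ligands of the Eph receptors, the 4 with the highest level per exon length in WT fell (Efnb2, Efna5, Efna1 and Efnb1) and the 3 with the lowest rose (Efna2, Efnb3 and Efna3). Efnb2 (mm10, chr8:8617434-8661242), which encodes ephrin-B2, a transmembrane ligand known for arterial identity and cell sorting, had 273, 261 and 258 CPM in the WT cultures and 14.5, 14.5 and 13.9 CPM in the Yme1l-/- cultures. The genotypes were far apart and the spread within each was small. Its level fell 18.5-fold, a log2 difference of -4.21 ± 0.05 (SE, edgeR adjusted p 7.1e-13), and 5.41% of the WT level was left. Efna5, a GPI-anchored ligand that binds many EphA receptors, had 78.6, 78.6 and 82.9 CPM in the WT cultures and 20.1, 24.8 and 23.7 CPM in the Yme1l-/- cultures. Every WT culture exceeded every Yme1l-/- culture at least 3-fold, with a log2 difference of -1.80 ± 0.07 (SE, edgeR adjusted p 2.6e-09).

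2 further ephrins fell by slightly less than 2-fold. Efna1, a ligand of Epha2, went from 23.5 ± 2.05 to 12.3 ± 1.11 CPM (SD, n = 3; log2 fold change -0.93 ± 0.09, SE). Efnb1, the X-linked ephrin-B whose loss disturbs cell sorting in the embryo, went from 17.3 ± 1.18 to 8.69 ± 1.01 CPM (log2 fold change -0.995 ± 0.10). In both, the genotypes did not overlap.

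The ephrins that rose started from low levels. Efna2 had 5.14, 6.11 and 4.62 CPM in the WT cultures and 12.2, 10.97 and 10.99 CPM in the Yme1l-/- cultures, a log2 difference of 1.103 ± 0.11 (SE, edgeR adjusted p 5.8e-06). Efnb3, an ephrin-B best known as a midline barrier to axons, had 5.65, 4.64 and 4.56 CPM in the WT cultures and 9.43, 10.1 and 11.9 CPM in the Yme1l-/- cultures, a log2 difference of 1.08 ± 0.12 (SE, edgeR adjusted p 1.3e-05). The genotypes did not overlap in either gene. Efna3 rose less, with a log2 fold change of 0.54 ± 0.15 (SE, edgeR adjusted p 0.0071), and Efna4 was not called at -0.10 (adjusted p 0.42), with libraries of the genotypes that overlapped. Efna3 and Efna4 lie close to each other and to Efna1 on chromosome 3.

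These changes altered the make-up of the family. On the scale of CPM per kb of annotated exon, which allows levels of different genes to be compared, the ephrins summed to 85.8 ± 2.56 in WT and 31.5 ± 0.771 in Yme1l-/- (SD, n = 3). Efnb2 was the most abundant ephrin in WT on this scale, with 44.9%, 44.8% and 44.9% of the summed level in the WT cultures, and it held 6.602%, 6.92% and 6.32% in the Yme1l-/- cultures. In Yme1l-/-, Efna1 had the largest share, 21.4% ± 1.58 against 14.95% ± 0.873 in WT, followed by Efna5 at 17.99% ± 2.26 and Efna2 at 16.9% ± 0.862. The ranges of Efna5 and Efna2 over the libraries overlapped. The ephrin-B ligands alone fell from 45.1 to 7.896 CPM per kb and the ephrin-A ligands from 40.7 to 23.6. In Yme1l-/- the 3 ephrin-B genes had levels of the same order, with mean shares of the ephrin-B sum of 41.7% for Efnb3, 31.9% for Efnb1 and 26.4% for Efnb2, whereas Efnb2 held 85.5% in WT.

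Among the Eph receptors, the receptor tyrosine kinases that bind ephrins, Epha2 and Ephb4 dominated in both genotypes. Epha2, which also acts without ligand in motile and transformed cells, had 389, 374 and 349.6 CPM in the WT cultures and 158, 154 and 147 CPM in the Yme1l-/- cultures. The genotypes did not overlap, with a log2 difference of -1.28 ± 0.05 (SE, edgeR adjusted p 2.7e-09). Ephb4, the receptor paired with ephrin-B2 in vessels, fell little, from 101 ± 4.85 to 79.8 ± 2.81 CPM (SD, n = 3; log2 fold change -0.34 ± 0.05, SE), on a deposited locus 98395 bases longer than the annotated gene. Together with the other receptors they summed to 108 ± 3.81 CPM per kb in WT and 59.5 ± 1.23 in Yme1l-/- (SD, n = 3). The share of Epha2 in that sum went from 73.6% ± 1.66 to 55.01% ± 0.886 and that of Ephb4 from 20.2% ± 1.23 to 28.9% ± 0.901.

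Ephb6 (mm10, chr6:41605482-41620509), an Eph receptor whose kinase domain is inactive, fell from a low level. It had 3.75, 4.34 and 4.23 CPM in the WT cultures and 0.171, 0.278 and 0.196 CPM in the Yme1l-/- cultures, which is 124 to 142 fragments per library in WT and 6 to 14 in Yme1l-/-. The change was 18.5-fold, a log2 difference of -4.21 ± 0.21 (SE, edgeR adjusted p 1.8e-08). The genotypes did not overlap.

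5 Eph receptors rose in Yme1l-/-, all of them from low or moderate levels. Epha4, a receptor that binds ephrins of both classes, had 1.33, 1.65 and 1.78 CPM in the WT cultures and 9.63, 10.1 and 8.07 CPM in the Yme1l-/- cultures, a log2 difference of 2.54 ± 0.15 (SE, edgeR adjusted p 5.0e-08). Its mean was 5.83-fold higher in Yme1l-/-, and no library of one genotype reached the other. Epha7, an EphA receptor of the developing nervous system, had 2.598, 2.54 and 3.19 CPM in the WT cultures and 5.89, 7.199 and 6.65 CPM in the Yme1l-/- cultures, a log2 difference of 1.25 ± 0.13 (SE, edgeR adjusted p 8.2e-06). Ephb2 and Ephb3, EphB receptors known for boundaries in the gut epithelium, rose less than 2-fold, at 0.64 ± 0.06 and 0.43 ± 0.08 on the log2 scale (SE). Epha1 had 0.997, 0.703 and 0.582 CPM in the WT cultures and 3.34, 2.38 and 2.905 CPM in the Yme1l-/- cultures, a log2 difference of 1.91 ± 0.23 (SE, edgeR adjusted p 1.8e-05). Its locus in the deposited table (mm10, chr6:42328713-42381215) extends beyond the annotated gene by 37721 bases in all and covers Zyx on the opposite strand, which carried 133601 fragments over the 6 libraries and rose by 1.54 ± 0.06 on the log2 scale. The libraries were made with a stranded kit, but whether counting used the strand is not given in the sources used here, and the part of Zyx fragments in the Epha1 counts was not tested.

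Among the semaphorins, the ligands of plexins and neuropilins, the secreted class 3 moved in both directions. Sema3a (mm10, chr5:13125414-13602565), known for collapsing growth cones and repelling axons, had 83.9, 87.7 and 86.3 CPM in the WT cultures and 370.4, 383 and 378 CPM in the Yme1l-/- cultures. It was 4.39-fold higher in Yme1l-/-, with a spread within genotypes far smaller than the difference, and a log2 difference of 2.13 ± 0.04 (SE, edgeR adjusted p 1.5e-11). Sema3g, a class 3 semaphorin known from vessels and fat tissue, had 1.03, 1.07 and 1.07 CPM in the WT cultures and 9.49, 9.52 and 10.2 CPM in the Yme1l-/- cultures. The rise was 9.19-fold, a log2 difference of 3.20 ± 0.12 (SE, edgeR adjusted p 1.7e-09), and the genotypes were well separated. Sema3d, known from the developing heart and vessels, had 0.363, 1.07 and 0.551 CPM in the WT cultures and 4.001, 4.14 and 4.99 CPM in the Yme1l-/- cultures. Its WT libraries, with 12 to 35 fragments each, spread widely but all lay below the Yme1l-/- libraries, with a log2 difference of 2.73 ± 0.28 (SE, edgeR adjusted p 7.9e-06). Sema3e, which signals through Plxnd1 without a neuropilin, rose from 13.9 ± 1.19 to 23.95 ± 1.42 CPM (SD, n = 3; log2 fold change 0.79 ± 0.08, SE).

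2 abundant class 3 semaphorins fell. Sema3c, which attracts neural crest cells and axons in several tissues, had 83.05, 109 and 89.7 CPM in the WT cultures and 44.1, 46.1 and 44.8 CPM in the Yme1l-/- cultures, a log2 difference of -1.06 ± 0.09 (SE, edgeR adjusted p 2.8e-06). Sema3f, a ligand that prefers neuropilin-2, had 96.5, 77.1 and 92.1 CPM in the WT cultures and 41.9, 41.7 and 45.5 CPM in the Yme1l-/- cultures, a log2 difference of -1.04 ± 0.08 (SE, edgeR adjusted p 7.6e-07). In both genes the WT libraries spread more than the Yme1l-/- libraries, and the genotypes did not overlap. Sema3b was not called, at -0.23 ± 0.13 (SE) on the log2 scale (edgeR adjusted p 0.13), although its highest Yme1l-/- value was below its lowest WT value.

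On the scale of CPM per kb of exon, the class 3 semaphorins summed to 38.95 ± 0.317 in WT and 47.7 ± 1.04 in Yme1l-/- (SD, n = 3). Sema3f and Sema3c were the most abundant in WT, with 43.8% ± 5.23 and 33.7% ± 4.64 of the sum, and their ranges over the libraries overlapped. Sema3a held 15.7%, 16.2% and 15.9% in the WT cultures and 57.4%, 57.6% and 56.1% in the Yme1l-/- cultures. In Yme1l-/-, Sema3f held 17.4% ± 0.645 and Sema3c 13.2% ± 0.274. In the authors' FPKM, Sema3f was at 40.3, Sema3a at 22.8 and Sema3c at 22.4 in WT, and at 19.7, 102 and 10.6 in Yme1l-/-. The order of Sema3a and Sema3c in WT thus differed between these scales, for a reason that was not tested. The sums and shares above hold for CPM per kb of exon only.

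**Figure D2:**
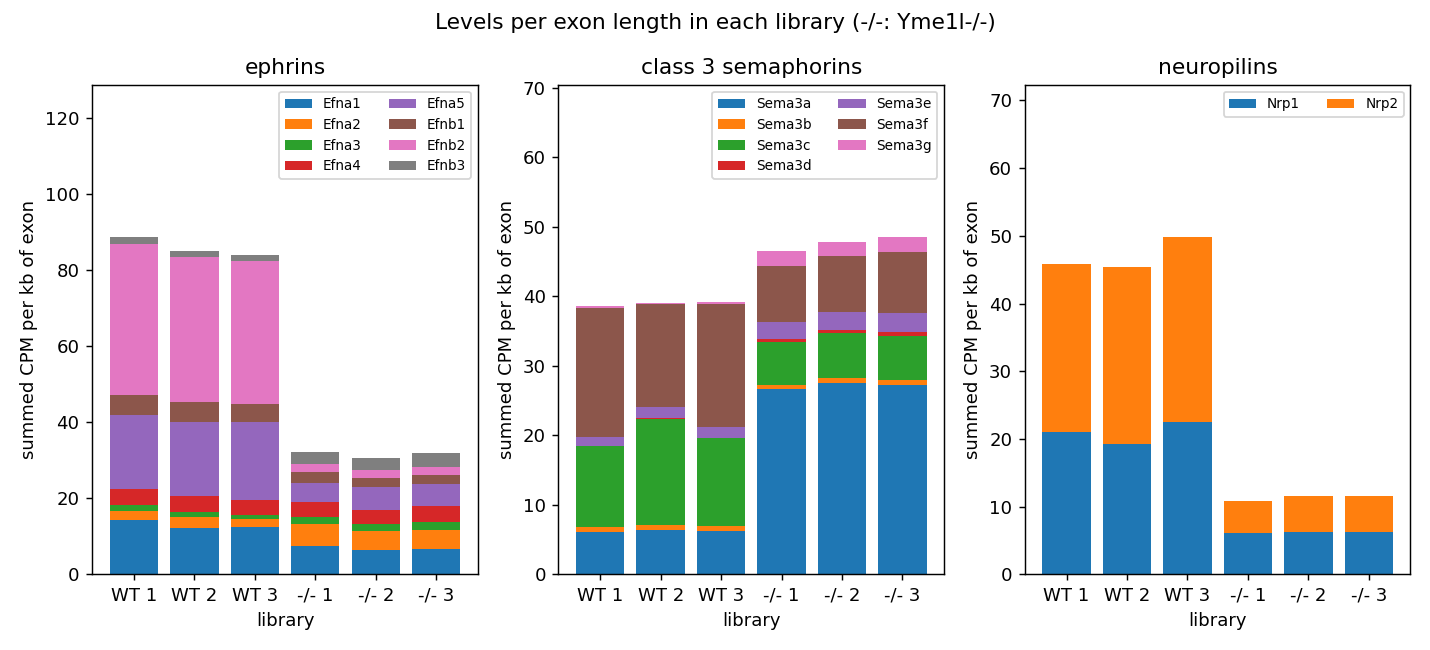
Summed CPM per kb of annotated exon (y axis) for the ephrins, the class 3 semaphorins and the neuropilins in each of the 6 libraries (x axis), with 1 colour per gene. The ephrin stack spans 83.8 to 88.7 in WT and 30.7 to 32.01 in Yme1l-/-, where most of the Efnb2 segment is gone, the class 3 stack changes its main segment to Sema3a, and the neuropilin stack spans 45.4 to 49.9 in WT and 10.8 to 11.6 in Yme1l-/-.

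None of the membrane-bound semaphorins averaged above 5 CPM per kb of exon in either genotype. In class 4, Sema4d, a transmembrane ligand of Plxnb1 that is shed from cells, had 5.77, 5.41 and 5.45 CPM in the WT cultures and 11.3, 11.96 and 11.99 CPM in the Yme1l-/- cultures, a log2 difference of 1.08 ± 0.09 (SE, edgeR adjusted p 8.2e-07). Sema4b, the class 4 member with the highest CPM, had 28.2, 29.3 and 24.8 CPM in the WT cultures and 17.3, 18.98 and 20.1 CPM in the Yme1l-/- cultures and fell by 0.54 ± 0.08 on the log2 scale (SE, edgeR adjusted p 9.7e-05). The genotypes did not overlap in either gene. Sema4g rose with a log2 fold change of 0.996 ± 0.16, just short of 2-fold. Sema4c was called lower with a log2 fold change of -0.32 ± 0.07, a call lost relative to its chromosome (-0.16, edgeR adjusted p 0.069). Its deposited locus is 124834 bases longer than the annotated gene. Sema4a fell with a log2 fold change of -1.25 ± 0.36 at under 1 CPM. Sema4f was called at -0.57 ± 0.22 (SE), adjusted p 0.04 in edgeR, and that call was lost in 6 of 14 alternatives, with adjusted p-values up to 0.193.

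In the remaining classes, Sema7a, the GPI-anchored semaphorin that acts through integrin beta-1 and Plxnc1, had 10.6, 13.9 and 8.58 CPM in the WT cultures and 3.71, 3.03 and 2.24 CPM in the Yme1l-/- cultures. The genotypes did not overlap, although libraries within a genotype differed by over 1.5-fold. The change was a log2 difference of -1.89 ± 0.22 (SE, edgeR adjusted p 4.3e-05). Sema5a, a transmembrane semaphorin with thrombospondin repeats, had 11.9, 14.9 and 12.2 CPM in the WT cultures and 9.12, 9.22 and 8.95 CPM in the Yme1l-/- cultures, a log2 difference of -0.51 ± 0.10 (SE, edgeR adjusted p 7.4e-04). Relative to its chromosome it was at -1.11. The FPKM that the authors deposited for Sema5a, 1 combined value per genotype, was 1.29 in WT and 1.39 in Yme1l-/-, the opposite order to the counts. Sema6c, the class 6 member with the highest CPM, had 1.903, 2.11 and 2.54 CPM in the WT cultures and 3.97, 4.38 and 4.53 CPM in the Yme1l-/- cultures and rose with a log2 fold change of 0.98 ± 0.15. Sema6a fell with a log2 fold change of -2.46 ± 0.45 at means under 1 CPM in both genotypes, and Sema6b was not called at -0.28 ± 0.41 (SE, adjusted p 0.56).

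Both neuropilins, the co-receptors that bind class 3 semaphorins and several VEGF ligands, fell in Yme1l-/-. Nrp2 (mm10, chr1:62703285-62818695) had 295, 309 and 324 CPM in the WT cultures and 55.5, 62.2 and 63.7 CPM in the Yme1l-/- cultures. It fell 5.11-fold, a log2 difference of -2.35 ± 0.06 (SE, edgeR adjusted p 9.8e-11). Nrp1 (mm10, chr8:128358604-128503363) had 205, 189 and 220.3 CPM in the WT cultures and 60.2, 61.3 and 60.6 CPM in the Yme1l-/- cultures. It fell 3.38-fold, a log2 difference of -1.75 ± 0.06 (SE, edgeR adjusted p 5.9e-10). Every Yme1l-/- library was below every WT library by at least 3-fold in both genes. Per kb of exon, the neuropilins had a summed CPM of 47.04 ± 2.45 (SD, n = 3) in WT and 11.3 ± 0.411 in Yme1l-/-. Nrp2 held 54.3%, 57.4% and 54.8% of that sum in the WT cultures and 43.2%, 45.6% and 46.5% in the Yme1l-/- cultures. On this scale the share of Nrp2 did not overlap between genotypes. In the FPKM that the authors deposited, Nrp1 was above Nrp2 in both genotypes, with 58.1 and 47.03 in WT and 17.3 and 9.24 in Yme1l-/-. Which neuropilin is the more abundant in WT thus differed between these scales, for a reason that was not tested.

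Among the plexins, the receptors that carry the semaphorin signal into the cell, the abundant members were higher in Yme1l-/- and several less abundant ones were lower. Plxnb2, a class B plexin for class 4 semaphorins, had 348, 329 and 357 CPM in the WT cultures and 655, 677 and 672 CPM in the Yme1l-/- cultures, a log2 difference of 0.95 ± 0.05 (SE, edgeR adjusted p 1.6e-08). Relative to its chromosome the log2 fold change of Plxnb2 was 0.36, still called. Plxna1, a partner of neuropilins in class 3 semaphorin receptors whose call was lost relative to its chromosome, had 392, 354 and 409 CPM in the WT cultures and 493, 511 and 469 CPM in the Yme1l-/- cultures, a log2 difference of 0.35 ± 0.06 (SE, edgeR adjusted p 2.7e-04). The genotypes did not overlap in either gene. Plxnd1, the receptor of Sema3e and a regulator of vessel patterning, had 13.7, 15.2 and 16.4 CPM in the WT cultures and 52.2, 56.6 and 57.6 CPM in the Yme1l-/- cultures, which is a 3.67-fold rise, a log2 difference of 1.87 ± 0.07 (SE, edgeR adjusted p 2.1e-09). Plxna2, a class A plexin with a role in semaphorin signalling of the nervous system, had 14.5, 15.7 and 15.96 CPM in the WT cultures and 3.86, 3.63 and 3.53 CPM in the Yme1l-/- cultures, a log2 difference of -2.07 ± 0.09 (SE, edgeR adjusted p 6.0e-09). Of the 6 plexins that passed the filter on low counts, Plxnd1 and Plxna2 were those changed at least 2-fold, in opposite directions and with well separated genotypes. Plxna3 and Plxnb1 fell by less than 2-fold, with log2 fold changes of -0.51 ± 0.07 and -0.93 ± 0.10 (SE). As CPM per kb of exon, the plexins had a summed level of 102 ± 5.61 (SD, n = 3) in WT and 156 ± 3.297 in Yme1l-/-. Plxnb2 and Plxna1 together made up most of that level, with shares of 43.9% ± 0.658 and 41.7% ± 0.835 in WT and of 55.4% ± 0.684 and 34.7% ± 1.07 in Yme1l-/-. The summed level was not corrected for the chromosome medians.

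**Figure D3:**
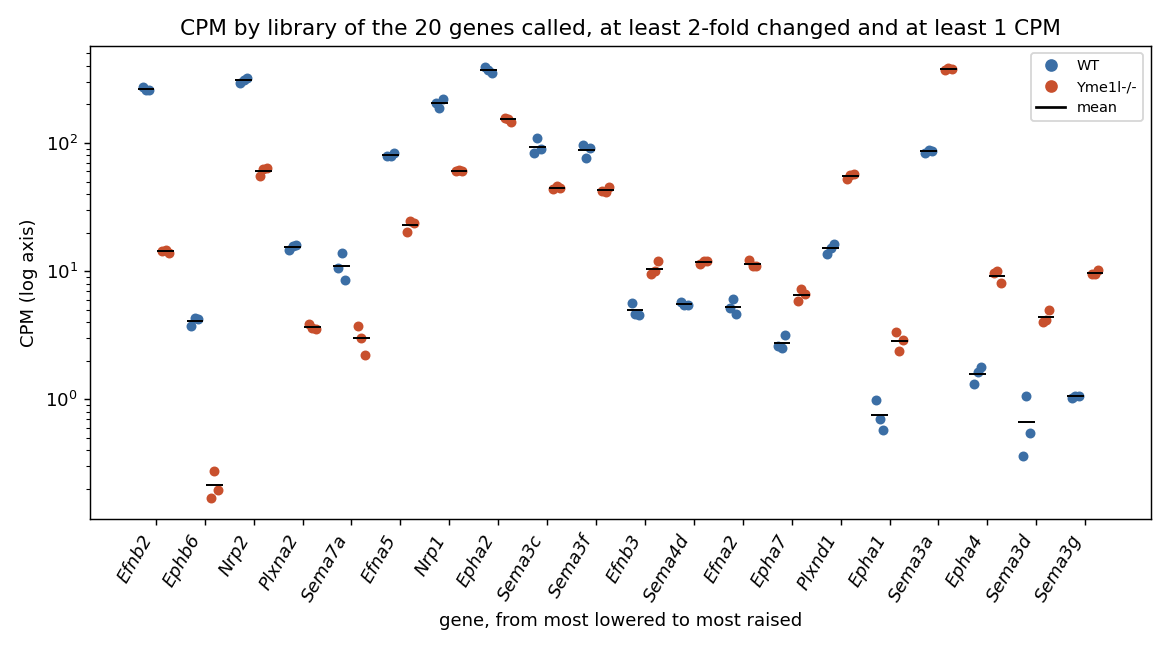
CPM in each library (log axis) for the 20 guidance genes that were called, changed at least 2-fold and averaged at least 1 CPM in the higher genotype, ordered by fold change, with black bars at the mean of 3 libraries. Each gene shows 2 separate groups of points, with WT above for the first 10 genes and Yme1l-/- above for the last 10.

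For the class 3 semaphorin system as a whole, the secreted ligands, the neuropilins and the class A and D plexins made up 14 loci, of which 13 were tested, 6 called higher, 6 lower and 1 not called, beside 33.6% called higher and 34.1% lower among all loci. The highest call was Sema3g and the lowest Nrp2. Among the ligands, Sema3a, Sema3d, Sema3e and Sema3g were higher and Sema3c and Sema3f lower. Among the receptors, Plxna1 (a call lost relative to its chromosome) and Plxnd1 were higher and Nrp1, Nrp2, Plxna2 and Plxna3 lower. Of the ephrin-B ligands, Efnb1 and Efnb2 fell and Efnb3 rose, and of the EphB receptors, Ephb4 and Ephb6 fell and Ephb2 and Ephb3 rose.

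The other 12 loci were too low to test. Epha5 (both loci), Epha6 and Ephb1 had no fragment in any library. A count of 0 allows up to 3 fragments in a library, which is at most 0.0919 CPM in WT and 0.0857 CPM in Yme1l-/- and covers counting error only. Plxna4, a class A plexin, had 5, 15 and 19 fragments in WT and 0, 0 and 0 in Yme1l-/-. Its WT mean of 0.397 CPM was 4.63-fold above the Yme1l-/- limit, while WT replicate 1 alone was at 0.151 CPM. Epha3 had 3, 1 and 0 fragments in WT and 6, 18 and 12 in Yme1l-/-. Plxnc1, the sole class C plexin and a receptor of Sema7a, had 1, 5 and 2 fragments in WT and 8, 13 and 8 in Yme1l-/-. Sema6d had 0, 8 and 3 fragments in WT and 0, 0 and 0 in Yme1l-/-. Epha8 had 1 to 9 fragments per library, Plxnb3 0 to 10, Sema5b 0 to 3 and Epha10 0 to 1. When every locus with at least 1 fragment was tested, Epha3 was called higher and Plxna4 and Sema6d lower, with edgeR adjusted p-values of 0.0018, 6.5e-09 and 0.0038, and the other low loci were not called, where 43.6% of all loci in that fit were called, 21.3% higher and 22.4% lower.

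Chromosomes differed in their median change between the genotypes, and whether a whole chromosome or a part of it shifted was not tested. The median log2 fold change over the tested loci of a chromosome ran from -0.44 for chromosome 12 to 0.59 for chromosome 15, so each guidance gene was also fitted relative to the median of its chromosome. Plxna1 lies on chromosome 6 (median 0.34), and relative to it the log2 fold change was 0.01 (edgeR adjusted p 0.909), so its call was lost. Plxnb2 and Sema5a lie on chromosome 15 (median 0.59), and both kept their calls, Plxnb2 with a smaller and Sema5a with a larger fold change. Sema4c on chromosome 1 lost its call. Sema3f on chromosome 9 (median -0.36) went to -0.68. Efna2 on chromosome 10 (median 0.30) went to 0.81 and Efnb3 on chromosome 11 (median 0.36) to 0.73, both still called but under 2-fold. Efnb2 and Nrp1 on chromosome 8 (median -0.32) were at -3.89 and -1.44, Nrp2 on chromosome 1 was at -2.20, and Sema3a on chromosome 5 (median 0.01) at 2.12. Relative to the chromosomes, 17 guidance genes were called higher and 20 lower, where 62.8% of all loci were called under the same fit, 31.1% higher and 31.7% lower.

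**Figure D4:**
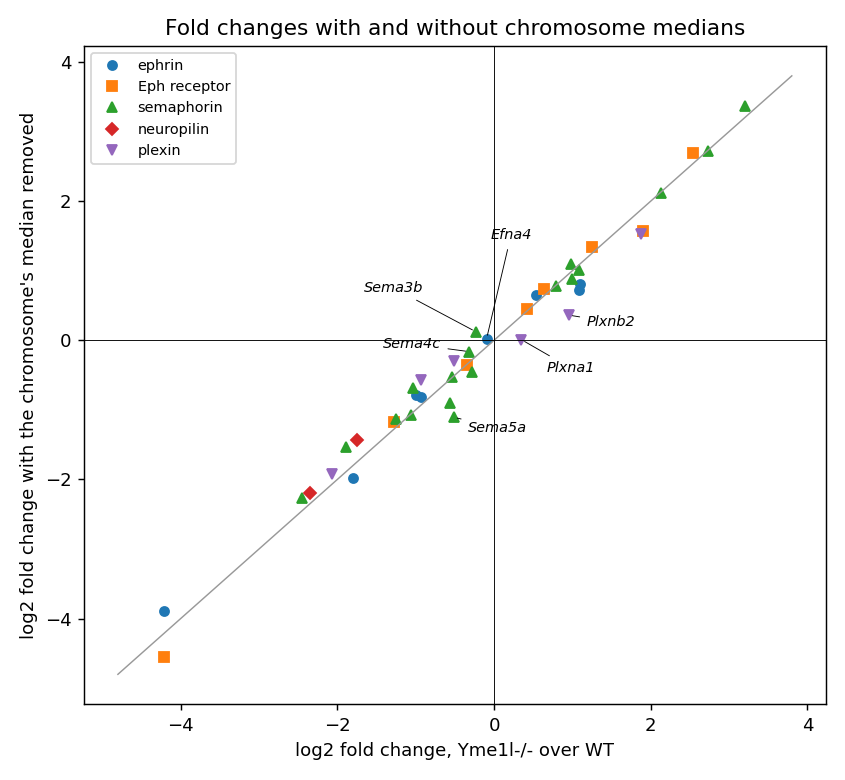
Log2 fold change of the 42 tested guidance genes (x axis) against the log2 fold change relative to the median of the gene's chromosome (y axis), with a marker per family and a grey line of equality. Most points lie near the line, Plxna1 drops to 0.01, Plxnb2 to 0.36, and Efna4 and Sema3b, which were not called, cross 0.

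Of 51 intracellular effectors and coreceptors of these pathways, 48 were tested, 15 called higher, 21 lower and 12 not called, with a median log2 fold change of -0.12, beside 33.6% called higher and 34.1% called lower among all loci. Relative to their chromosomes, the calls of Mical3, Met, Ptk2, Rap1a, Arhgef12, Nck1, L1cam, Itgb1 and Sipa1l1 were lost. Gipc1 went from -0.14, called lower, to 0.17, called higher. Fyn, Fer, Arhgdia and Cfl1, not called before, were called lower in that fit. Dpysl3, a collapsin response mediator protein that binds the cytoskeleton downstream of semaphorins, had 499, 499 and 508 CPM in the WT cultures and 90.2, 85.7 and 77.7 CPM in the Yme1l-/- cultures, a log2 difference of -2.57 ± 0.06 (SE, edgeR adjusted p 2.9e-11). Its relative Dpysl2 fell by less than 2-fold, at -0.54 ± 0.09 (SE). Mical2, a monooxygenase that oxidizes actin, fell with a log2 fold change of -0.78 ± 0.05 on a locus that joins several symbols. Mras, a small GTPase of the Ras family, rose with a log2 fold change of 1.86 ± 0.07. Itga1, the integrin alpha-1 chain, stood on a locus joined with Pelo that rose with a log2 fold change of 1.79 ± 0.05.

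Of 26 symbols for slits, robos, netrins and other axon guidance genes, 25 had a locus and 17 were tested, 3 called higher, 11 lower and 3 not called, with a median log2 fold change of -0.56, where 33.6% of all loci were called higher and 34.1% lower. Unc5c, a netrin receptor, had 8.76, 12.4 and 9.83 CPM in the WT cultures and 0.0857, 0.119 and 0.294 CPM in the Yme1l-/- cultures, a log2 difference of -5.86 ± 0.28 (SE, edgeR adjusted p 2.1e-08). Yme1l-/- replicate 3 held 15 of its fragments and the other Yme1l-/- libraries 3 and 6, and without replicate 3 the log2 fold change was -6.57. Slit3, a secreted ligand of robo receptors, and Rgma, a ligand of neogenin, fell with log2 fold changes of -1.74 ± 0.12 and -1.22 ± 0.07 (SE). Flrt3, a membrane protein that binds Unc5 receptors and latrophilins, had 2.18, 3.39 and 3.28 CPM in the WT cultures and 24.2, 24.5 and 27.7 CPM in the Yme1l-/- cultures, a log2 difference of 3.11 ± 0.14 (SE, edgeR adjusted p 8.4e-09). Flrt3 lies within Macrod2, which is on the opposite strand and was counted as a locus of its own, and the span given for the Flrt3 locus exceeds the annotated gene by 1977102 bases. For Rgma the excess was 65129 bases. The netrins Ntn1 and Ntn4 rose, at 1.46 ± 0.15 and 0.66 ± 0.06 on the log2 scale.

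Of the 8 VEGF ligands and receptors, some of which share neuropilins with the semaphorins, all were tested, and 3 were called higher, 3 lower and 2 not called, with a median log2 fold change of -0.04, where 67.7% of all loci were called. Flt4, the VEGF-C receptor that uses neuropilin-2, had 25.4, 23.7 and 29.1 CPM in the WT cultures and 2.34, 2.499 and 2.41 CPM in the Yme1l-/- cultures, a log2 difference of -3.43 ± 0.10 (SE, edgeR adjusted p 2.4e-10). Its ligand gene Vegfc rose with a log2 fold change of 1.64 ± 0.09 (SE), and Flt1, a receptor of VEGF-A, with one of 0.93 ± 0.07. Vegfb fell with a log2 fold change of -0.56 ± 0.08. Vegfa was not called at -0.16 ± 0.07 (adjusted p 0.061), as in 10 of 14 alternatives, and was called lower in the others. Endothelial markers were low, with sums of 1.23 to 1.59 CPM in WT and 1.83 to 2.26 CPM in Yme1l-/-, and neuronal markers summed to 23.3 to 27.8 and 6.66 to 8.62 CPM, mostly from Map2. The markers of the remaining cell types were also low and moved with genotype. Macrophage markers summed to 1.92 to 2.08 CPM in WT and 4.36 to 4.93 CPM in Yme1l-/-, where Cd68 was called higher (1.04 on the log2 scale, edgeR) and Adgre1 had no fragment. Skeletal muscle markers summed to 0.429 to 0.604 and 2.23 to 3.28 CPM, where Des was called higher (2.60) and Myog and Myf5 had no fragment. Among glial and Schwann cell markers, Mbp was called lower (-2.50) and Sox10 was near 0. The part of these markers in the results was not tested.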

How the data were processed

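Poly(A)-selected RNA of 6 cultures, 3 WT and 3 Yme1l-/-, was sequenced in pairs from libraries made with a stranded kit. Per the study's methods and the submitters' processing notes, the authors mapped reads to mm10 with HISAT2 2.0.4, assembled transcripts with StringTie 1.3.3 on Ensembl 91 annotation and compared genotypes with Cuffdiff 2.2.1. The authors deposited raw fragment counts per assembled locus, without normalization, which were used for every test. The authors also deposited FPKM values, combined over the 3 libraries of a genotype, used only where named, and columns of log2 ratios, p-values and q-values of the authors' own comparison, not used here. How fragments mapping to several places were counted is not given in the sources used here.

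Tests were run in edgeR 4.0.16 under R 4.3.3, with filterByExpr (minimum count 10), TMM scaling (factors 0.973 to 1.04), glmQLFit with robust estimation and glmQLFTest (two-sided, no covariates), with Benjamini-Hochberg adjustment over 13867 loci. The study's own test needs alignments, so it was not repeated. The SE is the log2 fold change divided by the root of the F statistic. Levels per kb used merged GENCODE M21 exons. The biological coefficient of variation came to 8.47%. Libraries had 33180867 to 49351107 fragments, and correlations of log2 CPM were 0.992 to 0.996 within genotypes and 0.909 to 0.912 between them. Within a genotype, libraries were further apart than counting noise (chi-square per degree of freedom at least 8.64), so no pair was taken for copies of 1 library. This does not show that the cultures were separate, which rests on the labels. Limits for a count of 0 used 3 fragments. Fragments copied by PCR were not identified, so such limits cover counting error only.

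Members and gene lists were chosen with earlier results of these data known. Named with values in every library were members called, changed at least 2-fold and averaging 1 CPM or more in the genotype with more, and the member with the highest mean CPM of each role group. Of the other lists, the 3 highest and 3 lowest log2 fold changes among calls with at least 10 CPM were named, and genes named beyond these were chosen after their values were seen. The value of 1 gene that this rule names is not reported here. Alternatives were RLE and upper-quartile scaling, DESeq2 1.42.0, no filter beyond 1 count, at least 10 counts in every library, the replicate number as a block, leaving out each library in turn, chromosome medians removed, libraries thinned to the smallest total, and joined loci left out. Scripts were tested on simulated counts.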

Additional observations from a re-analysis of the deposited data

How the results depend on the processing

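The counts of guidance genes called were 17 to 19 higher (18 as reported) and 18 to 23 lower (21) over all alternatives, and 19 to 26 were called with at least 2-fold change (22). The 18 lower and 19 came from requiring 10 counts in every library, where Ephb6, Sema6a and Sema4a were not tested (8513 of 12493 loci called). The 23 lower and 26 came from the fit with no filter beyond 1 count, which tests more loci (10051 of 23035 called). Leaving out 1 library gave 18 higher, 20 to 21 lower and 21 to 25 at least 2-fold changed, where 8765 to 9298 of 13867 loci were called. Of 584 values for single guidance genes under the alternatives, 574 kept direction and call, 8 lost the call, in Sema4f, Sema4c and Plxna1, and 2 changed sign. The changes of sign were those of Efna4 (0.022) and Sema3b (0.12) with chromosome medians removed, and neither gene was called in any case. For Sema4f, adjusted p in edgeR was 0.193 without WT replicate 2 and 0.115 without Yme1l-/- replicate 1. The cause was not tested. Upper-quartile scaling moved the median over all loci to 0.06 and the share of calls that were higher from 49.6% to 55.1%.

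With the replicate number of the labels as a block (replicate block), 18 guidance genes were called higher, 21 lower and 22 with at least 2-fold change, and Yme1l1 was at -2.27. In that fit 9794 of all 13867 loci were called, 49.4% of these calls higher. Deviations of same-numbered libraries from their group means correlated at 0.14, -0.09 and 0.05, so the numbers were not taken to pair the cultures. Depth limits loci of a few fragments: 12 guidance loci were not tested.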
